A study of Macaca mulatta with 12 samples.

Results

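Public CDR3 are T cell receptor junctions with the same amino acid sequence in repertoires that do not come from the same T cell clone. By the rule used here, 3909 of 176112 distinct productive CDR3 of the T cell receptor beta chain (TRB), or 2.22%, were counted as public. They were chosen from 8 libraries of rhesus macaque (Macaca mulatta) blood mononuclear cells pooled into 3 sets. A CDR3 was a member when it was found in 2 or more sets and some nucleotide sequence of 1 set was absent from another. A CDR3 with identical sequences in its sets did not qualify, but one with both a carried-over sequence and a variant did, so the rule does not show for each member that its sets hold different clones. A CDR3 seen in 1 set only was called private (171592), and 611 others were shared between sets with identical nucleotide sequences only.

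The CDR3 is the loop of the receptor made where a V, a D and a J gene segment are joined in the thymus. Enzymes trim the segment ends and add bases that no segment encodes, called non-templated or N bases, so most junctions arise in few individuals. Because several codons give the same amino acid, a junction with few added bases can be reached by more than 1 rearrangement, and such public CDR3 are known from humans, mice and monkeys. The V segment encodes the start of the loop, usually cysteine, alanine, serine, serine, and the J segment its end.

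The animals labelled Amazo, Nebula and Rocket received infusions of apoptotic donor leukocytes (ADLs), donor white cells fixed with ethylcarbodiimide so that they die after infusion. Days are counted from day 0, the day planned for a transplant. Per the labels the first infusion fell on day -7 and the second on day 1, whereas a figure legend of the study places the second on the planned transplant day. Per the study's methods they were nondiabetic, were not given a transplant, shared 1 Mamu-DR allele with the donor, and had transient immunosuppression with an anti-CD40 antibody, rapamycin, etanercept and tocilizumab. Libraries were taken on day -5 (n = 3) and day -4 (n = 3), 2 and 3 days after the first infusion, on day 0 from Nebula, and on day +3 from Amazo, 2 days after the second infusion per the labels. A further 4 baseline libraries carry other animal names, and their treatment is not given in the labels.

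The sets did not follow the Amazo label. The library labelled Amazo day -4 formed 1 set, the 3 Nebula libraries another, and both Rocket libraries with those labelled Amazo day -5 and Amazo day +3 the third, called Rocket-type below. Clonotypes (distinct CDR3 nucleotide sequences) of Amazo day -5 numbered 2636 in common with Rocket day -4 and 265 in common with Amazo day -4. With the other Rocket-type libraries Amazo day -4 had fewer in common, 81 with Amazo day +3, 74 with Rocket day -4 and 82 with Rocket day -5. Each set stands for an unknown number of animals, and results are given with each library left out in the closing section. Total counts per library ran from 42695 to 556954 after infusion and from 63 to 74 at baseline. The productive counts were 369649 in the Amazo day -4 set, 683660 in the Nebula set and 1404841 in the Rocket-type set.

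The sequences below show what made a CDR3 public. For 3 members found in all 3 sets with no nucleotide sequence in common, the most abundant sequence of each set is given 5′ to 3′, with the bases that differ between the sets in capitals.
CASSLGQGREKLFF, Amazo day -4 set: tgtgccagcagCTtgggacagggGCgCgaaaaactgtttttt
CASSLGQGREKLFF, Nebula set: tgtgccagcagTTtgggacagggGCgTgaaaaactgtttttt
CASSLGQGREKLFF, Rocket-type set: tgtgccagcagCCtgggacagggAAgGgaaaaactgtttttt
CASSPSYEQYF, Amazo day -4 set: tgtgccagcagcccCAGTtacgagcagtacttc
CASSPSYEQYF, Nebula set: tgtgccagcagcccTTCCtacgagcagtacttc
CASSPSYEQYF, Rocket-type set: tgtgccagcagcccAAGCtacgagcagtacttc
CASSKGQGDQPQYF, Amazo day -4 set: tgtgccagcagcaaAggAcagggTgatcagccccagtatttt
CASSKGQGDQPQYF, Nebula set: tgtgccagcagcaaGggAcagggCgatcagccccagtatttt
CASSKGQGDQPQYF, Rocket-type set: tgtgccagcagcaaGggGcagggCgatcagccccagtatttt
The capitals sit toward the middle of the junction, while both ends were the same in the 3 sets. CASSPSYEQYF had the same V gene, TRBV23-1, in the 3 sets, and the serine before its tyrosine was written with 3 different triplets.

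Pairs of sets gave members of the same kind. The next lines show members found in exactly 2 sets with no sequence in common, chosen for a high share of counts in the set where they were rarer. The pairs are Amazo day -4 with Nebula, Amazo day -4 with Rocket-type, and Nebula with Rocket-type.
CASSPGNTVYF, Amazo day -4 set: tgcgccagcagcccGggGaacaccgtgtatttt
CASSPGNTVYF, Nebula set: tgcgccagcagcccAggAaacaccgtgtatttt
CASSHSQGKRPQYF, Amazo day -4 set: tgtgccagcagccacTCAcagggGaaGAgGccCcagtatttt
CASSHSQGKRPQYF, Rocket-type set: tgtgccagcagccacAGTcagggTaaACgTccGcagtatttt
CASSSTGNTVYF, Nebula set: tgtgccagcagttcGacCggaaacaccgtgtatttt
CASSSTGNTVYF, Rocket-type set: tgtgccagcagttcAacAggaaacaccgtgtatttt
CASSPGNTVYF took 66 counts in the Amazo day -4 set and 331 in the Nebula set, under TRBV10-1 in both. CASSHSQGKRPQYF took 69 counts in the Amazo day -4 set and 102 in the Rocket-type set, under TRBV23-1 in both. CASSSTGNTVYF took 43 counts in the Nebula set and 81 in the Rocket-type set, under TRBV6-3 in both.

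Most public CDR3 joined the largest sets. Of the 3909 members, 2423 were shared by the Nebula and Rocket-type sets, 703 by Amazo day -4 and Rocket-type, 455 by Amazo day -4 and Nebula, and 328 were found in all 3 sets. Public CDR3 made up 6.46% of the distinct CDR3 of the Amazo day -4 set (1486 of 22996), 4.84% of the Nebula set (3206 of 66250) and 3.76% of the Rocket-type set (3454 of 91740). Per 1000000 pairs of CDR3, 1 from each set, the 3 pairs of sets gave 0.505, 0.482 and 0.451 public CDR3, in the order Amazo day -4 with Nebula, Amazo day -4 with Rocket-type, and Nebula with Rocket-type. Over single libraries the public share of distinct CDR3 ran from 4.44% to 6.46%, with a median of 4.88% (n = 8). For 3707 members at least 1 pair of sets had no nucleotide sequence of the CDR3 in common. The other 202 had a sequence in common in every pair of sets that held them, beside others that differed, and values with and without such pairs are given where they matter. Just inside the rule lay 1105 pairings of a member with 2 sets whose nearest sequences differed by a single base, and just outside it the 611 CDR3 shared with identical sequences only.

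Public CDR3 were shorter than private CDR3 in every set. Mean length was 39.8 nucleotides for public and 43.6 for private CDR3 in the Amazo day -4 set. The corresponding means were 39.9 and 43.6 in the Nebula set and 40.0 and 43.7 in the Rocket-type set. Public minus private averaged -3.72 ± 0.0577 nucleotides (SD, n = 3 sets), lower in 3 of 3 sets (exact two-sided sign-flip p = 0.25, the smallest that 3 sets allow). Each public CDR3 lies in 2 or 3 of the sets and has the same length in each, so here and below the set values share members and are not separate replicates. Public and private means did not overlap across the 8 libraries, which share members too, where the mean length ran from 39.6 to 40.0 nucleotides for public and from 43.4 to 43.9 for private CDR3. The public share of distinct CDR3 was highest at 11 amino acids, with 17.3%, 14.8% and 11.7% in the Amazo day -4, Nebula and Rocket-type sets. At 15 amino acids it was 3.79%, 3.02% and 2.41%, and at 17 it was 0.491%, 0.317% and 0.269%, in the same order.

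**Figure D1:**
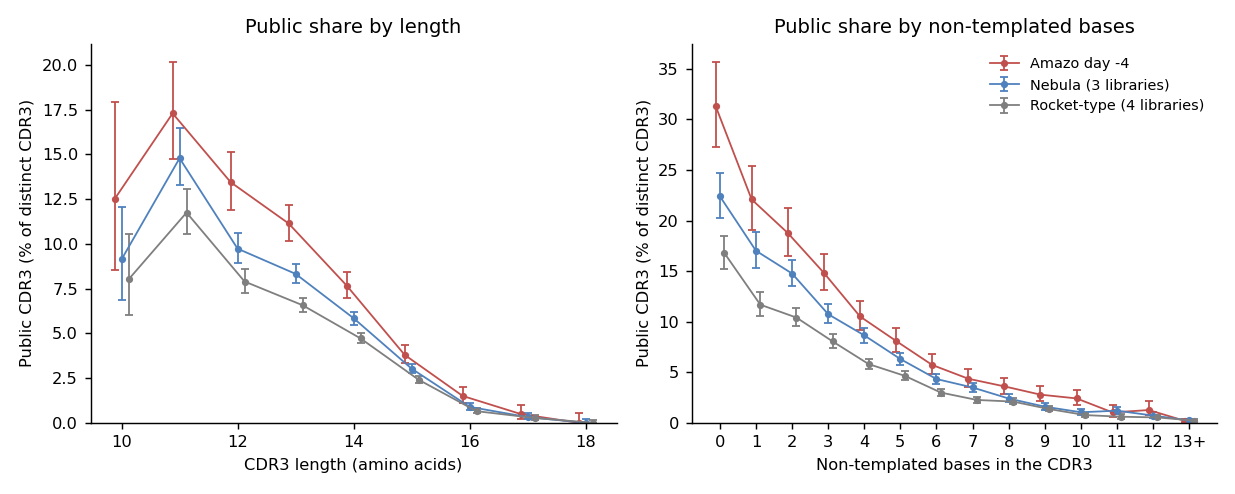
Public CDR3 as a percentage of the distinct productive CDR3 of each set (y axes), by CDR3 length in amino acids (left) and by the number of non-templated bases (right), with 95% Wilson intervals that cover counting error only. The share peaked at 11 amino acids and was highest at 0 non-templated bases in all 3 sets, where it was 31.3%, 22.4% and 16.8% in the Amazo day -4, Nebula and Rocket-type sets.

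Public CDR3 held fewer non-templated bases, that is, CDR3 bases outside the V, D and J parts marked in the files. The mean was 4.07 in public and 8.06 in private CDR3 of the Amazo day -4 set. It was 4.05 and 7.96 in the Nebula set and 3.93 and 7.45 in the Rocket-type set. The difference averaged -3.81 ± 0.251 bases (SD, n = 3 sets; exact sign-flip p = 0.25). Junctions with 0 such bases made up 9.89%, 9.08% and 9.73% of public CDR3 in the 3 sets, against 1.46%, 1.56% and 1.86% of private CDR3. Across libraries the mean ran from 3.68 to 4.08 bases in public and from 7.35 to 8.06 in private CDR3, again with no overlap.

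A D segment was found less often in public CDR3. The share with no D hit ran from 37.9% to 39.3% of public CDR3 over the 3 sets, against 24.9%, 25.3% and 23.4% of private CDR3 in the Amazo day -4, Nebula and Rocket-type sets. The difference averaged 13.9 ± 0.998 percentage points (SD, n = 3 sets; exact sign-flip p = 0.25). TRBD2 was the first D hit of 15.4% to 16.1% of public and 22.6% to 26.3% of private CDR3 over the sets. TRBD1 was lower in public CDR3 too, at 45.3% to 46.1% against 50.3% to 52.1%. Both shares are of all CDR3, including those with no D hit. The aligned parts of the V and J genes were longer in public CDR3, with means of 13.2 to 13.4 bases of V and 18.1 to 18.2 of J, against 12.7 to 12.9 and 17.2 to 17.5 in private CDR3.

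Length moved with both measures, so they were compared at fixed length. Public CDR3 had fewer non-templated bases at each length from 11 to 16 amino acids. The difference was -1.84 ± 0.254 bases at 11 amino acids and -3.93 ± 0.316 at 16 (SD, n = 3 sets; exact sign-flip p = 0.25 at each length). The share without a D hit was higher in public CDR3 by 17.9 ± 1.88 percentage points at 11 amino acids and by 10.1 ± 1.67 at 12 (SD, n = 3 sets; exact sign-flip p = 0.25 each). At 14, 15 and 16 amino acids the differences were 0.658 ± 2.26, 0.679 ± 2.73 and -0.211 ± 6.45 points (SD, n = 3 sets), smaller than their spread over the sets.

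**Figure D2:**
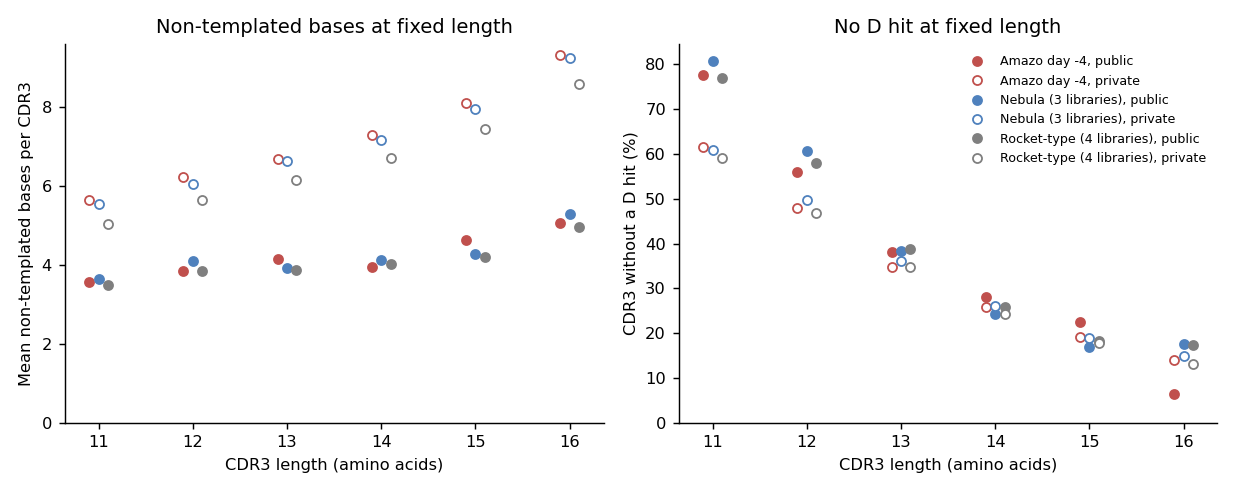
Mean non-templated bases per CDR3 (left) and CDR3 without a D hit in percent (right), by CDR3 length in amino acids, for public (filled) and private (open) CDR3 of each set, 1 point per set. Filled points lie below open points at every length on the left. On the right they lie above them at 11 amino acids, and both groups mix from 14 amino acids on.

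The middle of the loop differed in composition. Glycine, the smallest residue and one that D segments encode in each reading frame, made up 28.0%, 28.1% and 28.1% of central residues of public CDR3 in the 3 sets, against 22.7%, 22.1% and 23.0% in private CDR3. Central residues were those left after taking off 4 residues at the start and 5 at the end. The difference was 5.47 ± 0.487 percentage points (SD, n = 3 sets; exact sign-flip p = 0.25). Glutamine was higher by 2.23 ± 0.344 and leucine by 1.92 ± 0.203 points. Glutamate and isoleucine were lower, with differences of -1.63 ± 0.151 and -1.18 ± 0.0854 points (SD, n = 3 sets). Tryptophan took 0.832% of central residues in public and 2.00% in private CDR3.

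The start of the loop separated the groups too. CDR3 that begin with CASS made up 91.0% ± 1.08 of public and 69.6% ± 2.23 of private CDR3 (SD, n = 3 sets; exact sign-flip p = 0.25). Among CDR3 with that start alone, public minus private was -4.18 ± 0.106 nucleotides in length, -3.71 ± 0.248 non-templated bases and 13.3 ± 0.987 percentage points without a D hit (SD, n = 3 sets).

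V gene use was tested on the number of distinct CDR3 per gene in 6 lists with no CDR3 in common, 3 of public CDR3 found in exactly 2 sets and 3 of private CDR3. The lists come from the same 3 sets, so they are not independent samples of animals. Of 55 V genes tested, 6 passed an adjusted p of 0.05 (10.9%; edgeR quasi-likelihood test with Benjamini-Hochberg adjustment), of which 1 was higher (1.82%) and 5 were lower (9.09%) in public CDR3. TRBV5-1 took 9.67%, 10.8% and 8.50% of the public lists (Amazo day -4 with Nebula, Amazo day -4 with Rocket-type, Nebula with Rocket-type) and 5.75%, 5.01% and 5.68% of the private lists (Amazo day -4, Nebula, Rocket-type). All public lists lay above all private ones, and the log2 fold change was 0.76 ± 0.17 (SE; adjusted p = 0.0185 by edgeR). That call was lost under 9 of 22 alternatives, among them DESeq2 (adjusted p = 0.174), public CDR3 with no nucleotide sequence in common between sets (adjusted p = 0.0603) and the removal of Nebula day 0 (adjusted p = 0.1), with the direction kept in each.

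The V genes that were lower in public CDR3 were TRBV24-1, TRBV20-1, TRBV30, TRBV29-1 and TRBV13. TRBV20-1 took 1.32%, 1.28% and 0.537% of the public lists and 5.20%, 4.13% and 4.13% of the private lists (log2 fold change -2.31 ± 0.39 SE; adjusted p = 0.00514 by edgeR). TRBV29-1 took 1.10%, 0.711% and 0.537% against 3.34%, 3.25% and 2.11% (log2 fold change -2.08 ± 0.41 SE; adjusted p = 0.00879 by edgeR). TRBV24-1 was the V gene of 4 of 3581 public CDR3 and 3511 of 171592 private CDR3, a ratio of shares of 0.0546 (95% exact interval 0.0149 to 0.140). TRBV30 was that of 2 and 1587, a ratio of 0.0604 (95% exact interval 0.00731 to 0.218). All of those public CDR3, for both genes, were in the list of Nebula with Rocket-type. The intervals cover counting error only, not the spread between lists. Both genes passed the filter of 10 CDR3 in 3 lists only through the private lists, where they are high, and left the test when a private list was left out. With no filter on genes their adjusted p was 0.0067 and 0.0192 by edgeR. TRBV20-1, TRBV29-1 and TRBV13 also met the filter mainly through the private lists. Of the public lists, only that of Nebula with Rocket-type held 10 or more CDR3 of these genes (13, 13 and 12). With no filter on genes the adjusted p of TRBV20-1, TRBV29-1 and TRBV13 was 0.0067, 0.0127 and 0.0654 by edgeR. TRBV13 had a log2 fold change of -2.07 ± 0.56 (SE; adjusted p = 0.0436 by edgeR), and its call was lost under 12 of 22 alternatives, among them the removal of Amazo day -5 (adjusted p = 0.088) or Nebula day -4 (adjusted p = 0.0877). The calls of TRBV29-1 and TRBV30 were lost without the public list of Amazo day -4 with Rocket-type (adjusted p = 0.0615 for each by edgeR), and that of TRBV29-1 also without the private Nebula list (adjusted p = 0.0517).

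These genes also differ in how the loop begins. In private CDR3, TRBV24-1, TRBV20-1, TRBV30 and TRBV29-1 gave a CASS start in at most 0.360% of any set, and their commonest starts were CATS, CSAR, CAWS and CSVE. TRBV5-1 gave it in 88.6% ± 0.910 (SD, n = 3 sets). TRBV13 ran from 1.76% to 78.3% over the sets. When members were required to have a V gene in common between sets, TRBV20-1 had a log2 fold change of -0.00 (adjusted p = 0.993 by edgeR) and TRBV29-1 one of 0.41 (adjusted p = 0.704), and 1 V gene passed, TRBV5-1 (log2 fold change 1.15, adjusted p = 0.00446). With the set as a replicate block, on lists that share members, 23 V genes passed, 9 higher and 14 lower in public CDR3.

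**Figure D3:**
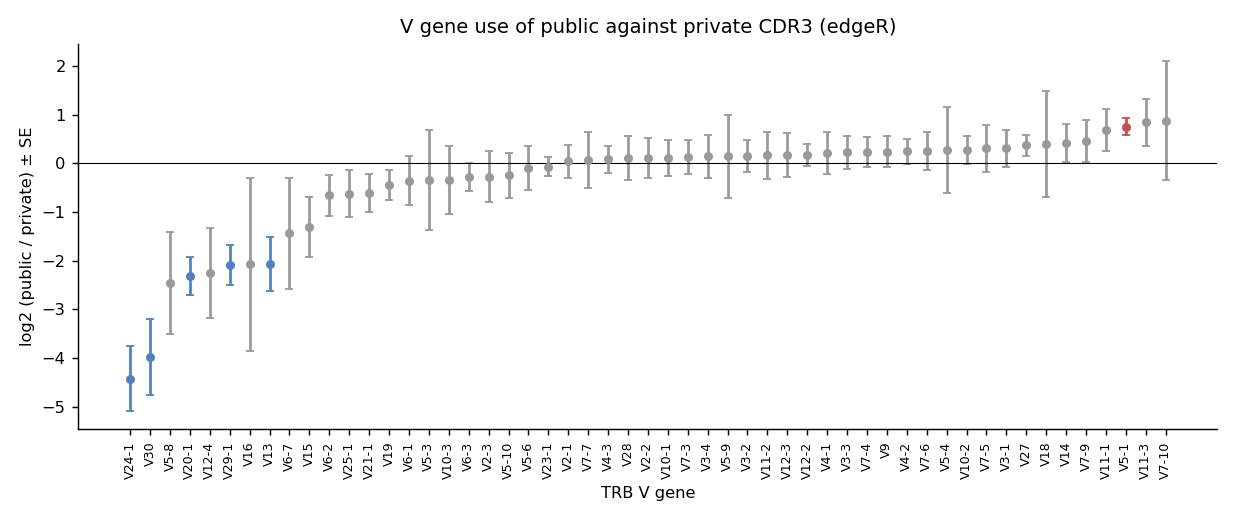
log2 fold change of the number of distinct CDR3 per TRB V gene, public lists over private lists (edgeR), with its standard error, for V genes with at least 1 public CDR3, in order of the change. The gene in red is higher and those in blue lower at an adjusted p below 0.05; grey genes did not pass.

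J gene calls depended on the design of the test. In the 6 disjoint lists, of 13 J genes, 0 had an adjusted p below 0.05 (0% called), 2 had an unadjusted p below 0.05 by edgeR, and DESeq2 also gave 0 adjusted calls with 1 unadjusted. TRBJ1-6 took 0.659%, 0.427% and 2.44% of the public lists and 3.43%, 3.10% and 3.72% of the private lists (log2 fold change -1.09 ± 0.44 SE; adjusted p = 0.24 by edgeR). With the set as a replicate block, on lists that share members, 5 J genes passed, 4 higher and 1 lower in public CDR3. Within sets TRBJ2-5 took 9.96%, 9.73% and 10.1% of public and 8.49%, 8.13% and 8.35% of private CDR3, a difference of 1.61 ± 0.142 percentage points (SD, n = 3 sets; exact sign-flip p = 0.25). TRBJ1-3 and TRBJ2-6 were higher in 3 of 3 sets, by 1.28 ± 0.239 and 1.34 ± 0.244 points, and TRBJ1-6 lower in 3 of 3, with a difference of -1.95 ± 0.897 (SD, n = 3 sets). TRBJ1-5 and TRBJ1-4 were also higher in 3 of 3, by 1.68 ± 0.787 and 1.12 ± 1.03 points. TRBJ2-1, TRBJ1-2 and TRBJ2-4 were also lower in 3 of 3. Their differences were -3.34 ± 3.12, -1.05 ± 0.713 and -0.444 ± 0.457 (SD, n = 3 sets). These genes were picked out after their values were seen. Genes of the second J cluster made up 60.6% ± 2.35 of public and 61.7% ± 3.48 of private CDR3 (SD, n = 3 sets).

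The nucleotide sequences behind 1 public CDR3 differed mostly at the third codon position. Where the sets had no sequence in common, the nearest sequences of the 2 sets differed by 2.51, 2.50 and 2.51 bases on average in the 3 pairs of sets, and by 1 base in 26.9%, 27.1% and 25.5% of pairings. Of the differing bases, 81.6% to 84.3% were at the third codon position and 3.21% to 4.20% at the second, which follows from the rule that the amino acids are the same. Between 78.9% and 81.6% lay between the V and J parts, 17.8% to 20.4% in the V part, and 0.546% to 0.794% in the J part.

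Public CDR3 usually came with another V gene in the other set. Of 4528 pairings of a public CDR3 with 2 sets, 709 (15.7%) had a V gene in common between the first hits of both sets. Counting every V gene listed among the hits gave 16.8%, and counting V gene families 26.1%. The share was 12.8% to 14.5% over the pairs of sets where no nucleotide sequence was in common, against 65.6% to 86.8% for CDR3 shared with identical sequences. A clonotype found in 2 libraries of 1 set kept a V gene in 95.7% of cases in the Nebula set and 93.9% in the Rocket-type set. Of 1105 pairings whose nearest sequences differed by 1 base, 232 had a V gene in common, against 36 of 536 (6.72%) that differed by 4 bases. The J gene matched in 99.5% to 99.7% of disjoint pairings. These are descriptions with no test, since the rule used the nucleotide sequences.

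**Figure D4:**
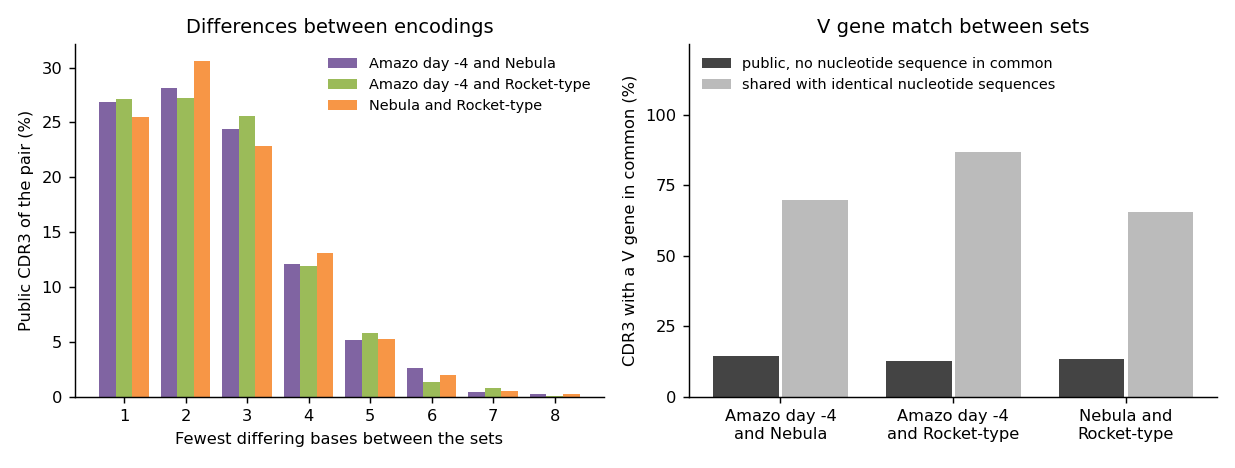
Left, percentage of the public CDR3 of each pair of sets (y axis) by the fewest bases that differ between their nucleotide sequences in the 2 sets (x axis), for pairs with no sequence in common. Right, percentage of CDR3 with a V gene in common between 2 sets, 12.8% to 14.5% for public CDR3 (dark bars) and 65.6% to 86.8% for CDR3 shared with identical sequences (light bars).

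Some public CDR3 were written in many ways. Of the members, 1313 had 3 or more distinct nucleotide sequences over all sets and 198 had 5 or more. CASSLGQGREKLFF had the most, 14 sequences under 7 V genes, none of them present in 2 sets. Its library values were 11 counts in Amazo day -4, 0, 3 and 24 in Nebula day -5, day -4 and day 0, 0 and 9 in Rocket day -5 and day -4, and 36 and 19 in the libraries labelled Amazo day -5 and day +3. Of its sequences, 12 were in the Rocket-type set, and the most abundant 1 was in the Nebula set. The lines below give 4 more of its sequences from the Rocket-type set, with the bases that vary among all 14 in capitals.
TRBV5-8 or TRBV5-9, 11 counts: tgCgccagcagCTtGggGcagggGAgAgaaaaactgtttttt
TRBV5-9, 7 counts: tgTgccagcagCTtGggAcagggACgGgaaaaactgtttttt
TRBV12-2, 7 counts: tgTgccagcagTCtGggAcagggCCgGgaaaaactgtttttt
TRBV9, 2 counts: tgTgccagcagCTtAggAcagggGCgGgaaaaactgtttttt
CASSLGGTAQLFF followed with 13 sequences under 8 V genes, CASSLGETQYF with 11 under 10, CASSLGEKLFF with 10 under 7 and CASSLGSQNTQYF with 10 under 6. Each of these loops begins with CASSLG, and 4 of the sequences of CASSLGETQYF were present in 2 sets.

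The members named for disjoint sequences in all 3 sets had low counts. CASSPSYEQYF took 14 counts in Amazo day -4, 53, 2 and 0 in Nebula day -5, day -4 and day 0, and 37 in the library labelled Amazo day -5, with 0 in the other Rocket-type libraries. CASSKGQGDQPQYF took 12 counts in Amazo day -4, 40, 8 and 0 in Nebula day -5, day -4 and day 0, 24 and 3 in Rocket day -5 and day -4, and 0 in the libraries labelled Amazo day -5 and day +3. These members were at 0 in some libraries of a set, whereas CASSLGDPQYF took 6 to 13 counts in each of the 4 Rocket-type libraries. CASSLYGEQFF carried TRBV14, TRBV7-10 and TRBV7-3 in the 3 sets and took 9, 32 and 37 counts. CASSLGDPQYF carried TRBV23-1, TRBV10-2 and TRBV7-4 and took 13, 32 and 33. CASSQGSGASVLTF carried TRBV4-3, TRBV3-1 and TRBV3-4 and took 14, 29 and 29, whereas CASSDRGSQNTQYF carried TRBV6-1, TRBV6-1 and TRBV25-1 and took 7, 13 and 35.

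Public CDR3 were more often seen more than once. The share with 2 or more counts was 97.2% of public and 91.7% of private CDR3 in the Amazo day -4 set, 89.9% and 84.0% in the Nebula set, and 94.8% and 89.4% in the Rocket-type set. The difference averaged 5.57 ± 0.329 percentage points (SD, n = 3 sets; exact sign-flip p = 0.25). Median counts were 11, 9 and 6 in public and 11, 7 and 5 in private CDR3. A public CDR3 pools 1.10, 1.25 and 1.35 nucleotide sequences on average in the 3 sets, against 1.03, 1.03 and 1.04 in private CDR3. For members with no nucleotide sequence in common between 2 sets, counts in 1 set said little of those in the other. Spearman correlations were 0.0508, 0.0296 and 0.0456 over 729, 947 and 2560 such CDR3, which share the same libraries. Members with a sequence in common between the 2 sets were left out of these correlations. A public clonotype was found in 2 or more libraries of its set in 5.76% of cases in the Nebula set and 7.30% in the Rocket-type set, against 4.16% and 5.23% for private clonotypes.

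In the Rocket-type set most of the summed abundance lay in members with a sequence in common with every other set holding them. In the other sets the smaller part lay in such members. Public CDR3 took 9.24%, 8.82% and 18.1% of productive counts in the Amazo day -4, Nebula and Rocket-type sets. A CDR3 was then counted in a set only if at least 1 other set holding it had no sequence of it in common with that set. Its sequences could still be in common with the third set. The shares were then 5.53%, 5.52% and 2.59%. The remainder, 3.71%, 3.30% and 15.5%, came from 61, 177 and 196 CDR3. The 82 clonotypes that Rocket day -5 had in common with Amazo day -4 took 43.9% of the counts of Rocket day -5, and their part in the summed share was not tested. Over the 8 libraries the summed share ran from 8.30% to 19.4% with a median of 13.6%. For members with no sequence in common with at least 1 other set it ran from 2.23% to 5.65% with a median of 4.06%.

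**Figure D5:**
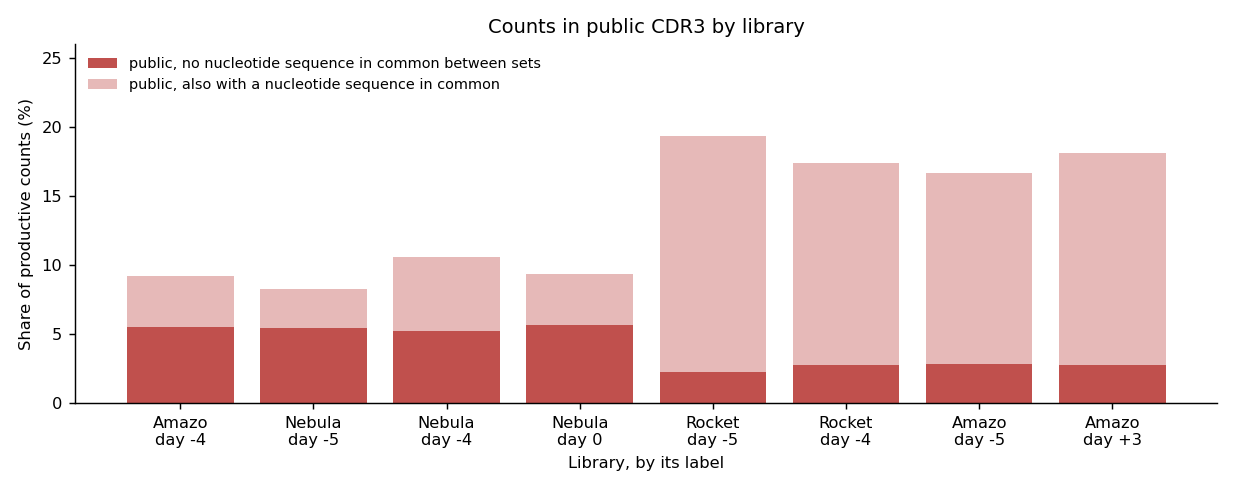
Share of productive counts (percent) in public CDR3 by library, in stacked parts. Dark parts are members with no nucleotide sequence in common with at least 1 other set holding them. Light parts are members with one in common with every other set holding them. The dark part ran from 2.23% to 5.65% and the light part was largest in the 4 Rocket-type libraries at the right.

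Most large members were large in 1 set and rare in the others. Of 15 members at 0.1% of counts or more in any set, 11 had a nucleotide sequence in common in every pair of sets that held them. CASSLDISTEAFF (TRBV9, TRBJ1-1) took 29531 and 12455 counts in Rocket day -5 and day -4, and 11994 and 10151 in the libraries labelled Amazo day -5 and day +3. It took 8 counts in Amazo day -4 and 8, 0 and 7 in Nebula day -5, day -4 and day 0. Of the 15 counts in the Nebula set, 14 had the nucleotide sequence of the large clone, and the other differed from it by 1 base. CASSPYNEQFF (TRBV12-2, TRBJ2-1) took 61453 counts in the Rocket-type set and 7 and 11 in the Amazo day -4 and Nebula sets, each count with the sequence that held 61442 counts in the Rocket-type set. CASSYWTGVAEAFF (TRBV6-3, TRBJ1-1) took 8029, 1738 and 7305 counts in Nebula day -5, day -4 and day 0, and 3 each in the other sets. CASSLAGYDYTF (TRBV5-1, TRBJ1-2) took 6727 counts in Amazo day -4, of which 6700 had 1 sequence, and 99 counts in the Rocket-type set, all with that sequence. Those 99 were 90 and 9 in the libraries labelled Amazo day -5 and day +3, with 0 in Rocket day -5 and 0 in Rocket day -4. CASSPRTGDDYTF, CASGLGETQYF and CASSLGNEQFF took 1.99%, 1.85% and 0.631% of the Rocket-type counts and 1 to 4 counts in each other set. An exception was a member of 16 amino acids with TRBV7-3 and TRBJ2-5, picked out after its values were seen. It took 1173 counts in Amazo day -4 and 1593 in the Nebula set under sequences that differ by 1 base, and 14 counts in the Rocket-type set with the sequence of Amazo day -4.

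The summed share was compared between day -5 and day -4, the days with 3 libraries each, with the animal label as the pair. Public CDR3 took 16.6%, 8.30% and 19.4% of counts at day -5 and 9.24%, 10.6% and 17.4% at day -4 in the libraries labelled Amazo, Nebula and Rocket. The mean difference was -2.37 ± 4.85 percentage points (SD, n = 3 pairs; exact sign-flip p = 0.75), smaller than its spread. The Amazo pair joins libraries of different sets, and without it the mean was 0.146. Members with no nucleotide sequence in common with at least 1 other set took 2.88%, 5.47% and 2.23% at day -5 and 5.53%, 5.25% and 2.77% at day -4. Their mean difference was 0.989 ± 1.49 (SD, n = 3 pairs, exact sign-flip p = 0.5).

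Public CDR3 of 2 sets were often found in the third as well. These values are a description with no test, since the rule used all 3 sets and the counts draw on the same 328 members found in all of them. Of 770 CDR3 public to Amazo day -4 and Nebula, 285 (37.0%, 95% Wilson interval 33.7 to 40.5) were found in the Rocket-type set with a nucleotide sequence absent from both, against 3.52% of 87520 CDR3 of only 1 of the 2. The Nebula set held 275 of 1017 CDR3 public to the other two (interval 24.4% to 29.9%), against 2.51%. Amazo day -4 held 255 of 2741 (9.30%, interval 8.27% to 10.4%), against 0.743%. The ratios were 10.5, 10.8 and 12.5.

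The baseline libraries, which the rule did not use, held 46, 37, 43 and 27 productive CDR3, 153 in all. Of these, 5 matched a public and 9 a private CDR3. Per 10000 CDR3 of each class, 12.8 public (95% Wilson interval 5.46 to 29.9) and 0.525 private (interval 0.276 to 0.997) were matched. The matches to public CDR3 were 3, 2, 0 and 0 in baseline libraries 1 to 4, and those to private CDR3 5, 1, 1 and 2. The mean difference over libraries was 3.07 ± 3.76 per 10000 (SD, n = 4; exact sign-flip p = 0.5), higher in 2 of 4. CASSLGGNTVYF was matched by the same nucleotide sequence as 1 of its 9 in the sets. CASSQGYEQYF, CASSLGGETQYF, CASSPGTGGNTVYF and 1 member of 15 amino acids were matched by another, as shown for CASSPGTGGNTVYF in baseline library 2: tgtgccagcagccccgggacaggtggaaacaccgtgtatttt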

How the data were processed

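TRB transcripts of 12 blood libraries were amplified after template switching and sequenced on a MiSeq. The authors removed low-quality sequence with Trimmomatic and called clones with MiXCR, using rhesus TRB segments. The version of MiXCR is not given in the sources used here. Deposited counts are whole numbers of sequences per clone without normalization, and the deposited fraction is the count over the library total. The study describes barcode collapsing and a 0.5% clone threshold, but the tables hold smaller clones and no barcode column. PCR copies are not independent molecules, so intervals cover counting error only.

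Members and lists were chosen with earlier results of these data known. Productive CDR3 (no stop or frameshift) took the features of their largest clonotype per set, with first hits as V, D and J genes. Set means were compared by exact two-sided sign-flip tests, which cannot go below p = 0.25 with 3 sets. The tests give that value whenever all 3 differences have the same sign, whatever their spread. Each p refers to these sets or libraries only. CDR3 per gene were tested with edgeR 4.0.16 in R 4.3.3 (TMM, at least 10 CDR3 in at least 3 of 6 lists), with DESeq2 1.42.0 as an alternative, after tests on simulated data. CDR3 were named by rule: disjoint in all sets with the highest lowest share, the same for each pair of sets, most nucleotide sequences, and the largest of at least 0.1%. Of these, those of 15 or more amino acids are not spelled out. Day -5 and day -4 were paired by animal name in the labels, and deviations of V gene use from the day means correlated at 0.19 in Amazo, 0.71 in Nebula and 0.72 in Rocket. Alternatives changed the definition of public, depth, libraries and model. Python 3.11.15 ran the rest, with numpy 2.4.6, pandas 2.3.3, scipy 1.17.1 and matplotlib 3.10.9.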

Additional observations from a re-analysis of the deposited data

Results flagged for a closer look

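The change in the summed share of public CDR3 from day -5 to day -4 differed in direction between the labels. It was -7.39 percentage points in the libraries labelled Amazo, 2.28 in Nebula and -1.99 in Rocket. For members with no nucleotide sequence in common with at least 1 other set it was 2.65, -0.221 and 0.538 percentage points, in the same order. Each label has 1 library per day, and the difference between labels was not tested.

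Nonproductive rearrangements, which were outside the comparisons, were also shared between sets. Of 16737 distinct nonproductive nucleotide sequences, 34 (0.203%, 95% Wilson interval 0.145 to 0.284) were found in 2 or more sets, against 923 of 188274 productive ones (0.490%, interval 0.460 to 0.523).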

How the results depend on the processing

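Over 12 results, 147 of 184 alternative values stayed within the spread over sets or within 1.5 times the count, 33 moved and 4 reversed. The cause was not tested. With no sequence common to at least 1 pair of sets, length was -3.66 nucleotides, V match 13.5% and the day difference 0.989. With 2 or more bases different these were -3.36, 10.8% and 0.737, with 11.2 points without a D hit, -3.49 non-templated bases, 5.19 points with 2 or more counts and a baseline difference of 0.753 per 10000. Requiring a V gene in common left 646 members, with length -4.11, 22.2 points without a D hit, 7.61 per 10000 at baseline, 0.425 more sequences per CDR3 and 1 V gene called, and reversed TRBV29-1 (0.41). Clonotypes with 2 or more counts gave a V match of 14.6% and a day difference of -0.183, and thinning to equal counts 6.53 points with 2 or more counts. Weighting by counts gave -4.05 nucleotides and -3.39 bases. Against CDR3 shared with identical sequences, differences were -2.66 nucleotides, 11.1 points without a D hit, -2.70 bases and 17.1 points with 2 or more counts. V matches over listed hits (16.8%) and families (26.1%) were chosen after seeing the data.

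Leaving out 1 library or list in turn, length ran from -3.83 to -3.69, CDR3 with 2 or more counts from 5.15 to 5.67 points, V genes called from 1 (without the private Nebula list) to 6, and J genes from 0 to 1. The baseline difference ran from 1.63 (without baseline library 1) to 4.13 per 10000. Leaving out the public Amazo day -4 with Rocket-type list or the private Rocket-type list gave 2 V genes each. The day difference ran from -4.75 (without Nebula day -4) to 0.016 (without Amazo day -4), was -0.482 without Amazo day -5, and was 0.146 without the label Amazo. With no replicate block it was -2.37 (exact permutation p = 0.8). With the set as replicate block 23 V and 5 J genes passed, on lists that share members. Without Amazo day -4 the third-set values and gene tests could not be fitted. Baseline depth, 63 to 74 counts, limits the baseline comparison.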
